A study of Mus musculus with 12 samples.

Results

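The genes of oxidative phosphorylation, which are written in both the nuclear and the mitochondrial genome, were followed through 12 RNA libraries of mouse liver cells. A gene was taken when the deposited gene table gave it as protein coding and its symbol began with Nduf, Uqcr, Cox4 to Cox8 or Atp5, or was Sdha, Sdhb, Sdhc, Sdhd or Cycs. The 13 protein genes of mitochondrial DNA were added. This gave 109 of 45777 genes, with 96 in the nucleus and 13 in the mitochondrion. The nuclear genes comprise 38 of complex I, 8 complex I assembly factors, 4 of complex II, 8 of complex III, 20 of complex IV, 17 of complex V, and Cycs. The mitochondrial genes comprise 7 of complex I, 1 of complex III, 3 of complex IV and 2 of complex V. Nuclear complex IV counts Ndufa4 and Ndufa4l2 here, since the Ndufa4 protein is found in that complex.

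The groups were LSECs grown with Hepa1-6 cells, LSECs alone, Hepa1-6 cells grown with LSECs, and Hepa1-6 cells alone, with 3 libraries each. LSECs are primary sinusoidal endothelial cells of the liver, and Hepa1-6 is a mouse hepatoma cell line. The cells shared medium across an insert with 3 µm pores for 24 h in 2% serum, with 500000 LSECs below and 100000 Hepa1-6 cells above. All groups carried no other treatment, and the strain and age of the animals are not given in the sources used here. The title of each co-culture library names both cells, and the cell named at its front was taken as the cell that was sequenced. The 12 pan-endothelial markers summed to 13756 to 15290 CPM (counts scaled to one common library size) in co-cultured LSECs and 13156 to 14808 CPM in LSECs alone, against 41.0 to 43.3 CPM in co-cultured Hepa1-6 cells and 38.7 to 39.8 CPM in Hepa1-6 cells alone. Whether the 3 libraries of a group came from separate cultures is not stated, so p-values measure only the spread between these libraries.

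Oxidative phosphorylation passes electrons from NADH and succinate along complexes I to IV of the inner mitochondrial membrane, and complex V uses the resulting proton gradient to make ATP. Complex II is built from nuclear genes alone, while complexes I, III, IV and V join subunits of both genomes. Mitochondrial genes are read as long transcripts that cover many genes and are then cut apart. ND6 lies on the opposite strand from the other mitochondrial protein genes.

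The mitochondrial genes are packed so tightly that some share bases, which decides how far their counts can be told apart. ATP8 and ATP6, which encode neighbouring subunits of the ATP synthase membrane part, share 43 bases, 21.1% of ATP8. ND4L and ND4 share 7 bases, ND5 and ND6 share 14 bases on opposite strands, and ATP6 and COX3 share 1 base. The sequences are from GENCODE vM21, whose gene spans are the same as the deposited ones (mm10), and are shown for ATP8, which of these genes shares the largest part of its length, and for the ends where ND4L meets ND4 and where ND5 and ND6 face each other. Capitals mark the shared bases. ATP8 is shown whole (chrM:7766-7969, plus strand). The last 30 bases are shown for ND4L (chrM:10144-10173, plus strand), for ND5 (chrM:13536-13565, plus strand) and for ND6 (chrM:13552-13581, minus strand). In ND6 the capitals are the complement of those in ND5.
ATP8: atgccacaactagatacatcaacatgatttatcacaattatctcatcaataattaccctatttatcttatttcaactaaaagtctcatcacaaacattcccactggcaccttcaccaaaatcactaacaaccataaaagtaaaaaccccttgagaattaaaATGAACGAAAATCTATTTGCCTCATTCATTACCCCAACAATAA
ND4L: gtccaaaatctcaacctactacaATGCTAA
ND5: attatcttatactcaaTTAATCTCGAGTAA
ND6: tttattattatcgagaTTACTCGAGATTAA

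Nuclear genes of this pathway have promoters of their own, and 78 of the 96 had a promoter sequence (250 bases before to 50 after the start) in RefSeq for GRCm38.p6. Letters known as cores of binding sites were searched on both strands. A gene was counted when any of its promoter sequences held the letters. GCGCATGC, a core of the NRF1 site, was found for 13 of 78 members (16.7%) and for 3.05% of all 27025 genes with a promoter sequence. CCGGAAGT, a core bound by ETS factors such as GABP, was found for 5 members (6.41%) and for 4.31% of all genes. AAGATGGC, a core of the YY1 site, was found for 11 members (14.1%) and for 3.19% of all genes. Of the 14 members with a promoter sequence that were lower in co-cultured Hepa1-6 cells, described below, 3 held the NRF1 letters, 2 the ETS letters and 1 the YY1 letters. A match describes letters only. One promoter for each core among those members is shown, with that of Sdhb, which was higher, and capitals mark the matches. They lie at chr15:102670998-102671297 on the minus strand (Atp5g2, NRF1), chr19:7217567-7217866 on the minus strand (Cox8a, ETS, at both places), chr10:80249199-80249498 on the plus strand (Ndufs7, YY1) and chr4:140961021-140961320 on the plus strand (Sdhb, NRF1). In Atp5g2 the capitals are 2 overlapping matches, 1 on each strand. Where a gene had several promoter sequences, one with the most of these cores was taken for display. Those of Atp5g2 and Ndufs7 lie inside the deposited gene spans (chr15:102662864-102671297 and chr10:80249105-80256794). They therefore belong to starts within these spans.
Atp5g2: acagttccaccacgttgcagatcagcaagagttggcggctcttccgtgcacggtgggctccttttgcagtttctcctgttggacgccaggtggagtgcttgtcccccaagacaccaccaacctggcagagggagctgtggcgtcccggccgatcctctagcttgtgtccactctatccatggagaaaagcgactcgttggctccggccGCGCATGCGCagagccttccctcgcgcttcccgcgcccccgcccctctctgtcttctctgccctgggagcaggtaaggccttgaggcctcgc
Cox8a: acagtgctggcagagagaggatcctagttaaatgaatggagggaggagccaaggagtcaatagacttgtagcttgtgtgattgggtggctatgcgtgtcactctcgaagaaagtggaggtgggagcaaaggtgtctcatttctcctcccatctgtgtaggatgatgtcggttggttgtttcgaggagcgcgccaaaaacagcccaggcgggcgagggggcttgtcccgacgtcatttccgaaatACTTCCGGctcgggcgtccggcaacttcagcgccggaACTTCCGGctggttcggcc
Ndufs7: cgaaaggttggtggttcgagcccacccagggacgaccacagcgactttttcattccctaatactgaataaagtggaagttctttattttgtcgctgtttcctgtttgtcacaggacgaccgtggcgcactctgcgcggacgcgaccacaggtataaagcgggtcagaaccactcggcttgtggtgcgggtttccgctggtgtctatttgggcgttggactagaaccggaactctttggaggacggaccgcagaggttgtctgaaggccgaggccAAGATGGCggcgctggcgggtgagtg
Sdhb: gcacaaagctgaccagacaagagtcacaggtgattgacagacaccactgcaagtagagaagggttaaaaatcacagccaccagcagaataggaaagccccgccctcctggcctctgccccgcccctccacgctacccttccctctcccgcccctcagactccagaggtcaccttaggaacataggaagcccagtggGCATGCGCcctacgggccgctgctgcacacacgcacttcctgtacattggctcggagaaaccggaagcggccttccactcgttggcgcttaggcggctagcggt

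Total counts were 32761492 to 48870698 per library. Replicate 1 of the LSECs stood apart in both cultures. Its counts differed from those of replicates 2 and 3 with a chi-square of 182 to 296 per degree of freedom, whereas replicates 2 and 3 gave 4.16 to 5.32 and Hepa1-6 replicates 3.22 to 5.84. Genes under 1 kb took 12.7% of its counts in co-culture and 14.8% in mono-culture, against 7.33% to 7.72% in replicates 2 and 3. The members are short, with a median length of 772 bases for the nuclear members tested and 784 bases for the mitochondrial ones. All genes with a mean of at least 10 counts had a median of 2795 bases. The mitochondrial genes together took a smaller share of the counts in replicate 1 than in replicates 2 and 3, as given below. The part of length in these differences was not tested. LSEC results are therefore given with all libraries, with replicate number as a block, and from replicates 2 and 3 alone.

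The 2 genomes contributed in different proportions in the 2 cell types. The 13 mitochondrial genes took 1.59%, 1.81% and 1.86% of all counts in co-cultured LSECs and 1.16%, 1.43% and 1.42% in LSECs alone. They took 5.18%, 5.22% and 5.04% in co-cultured Hepa1-6 cells and 5.08%, 5.05% and 5.01% in Hepa1-6 cells alone. Every Hepa1-6 library was above every LSEC library.

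The 96 nuclear genes took 1.15%, 0.728% and 0.732% in co-cultured LSECs and 1.33%, 0.762% and 0.737% in LSECs alone. They took 1.17%, 1.17% and 1.12% in co-cultured Hepa1-6 cells and 1.20%, 1.22% and 1.19% in Hepa1-6 cells alone. Here LSEC replicate 1 lay among or above the Hepa1-6 libraries and replicates 2 and 3 below them.

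The ratio of mitochondrial to nuclear counts was 1.38, 2.49 and 2.54 in co-cultured LSECs and 0.870, 1.88 and 1.92 in LSECs alone. It was 4.42, 4.48 and 4.48 in co-cultured Hepa1-6 cells and 4.24, 4.15 and 4.21 in Hepa1-6 cells alone. The ratio was higher in co-culture in each same-numbered pair, by 1.59-, 1.33- and 1.32-fold in LSECs and by 1.04-, 1.08- and 1.07-fold in Hepa1-6 cells. The difference of the mean log2 ratios in LSECs, 0.49, was 0.12 without mono-culture replicate 1 and 0.78 without co-culture replicate 1. As a sum over chosen genes it was given no test.

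**Figure D1:**
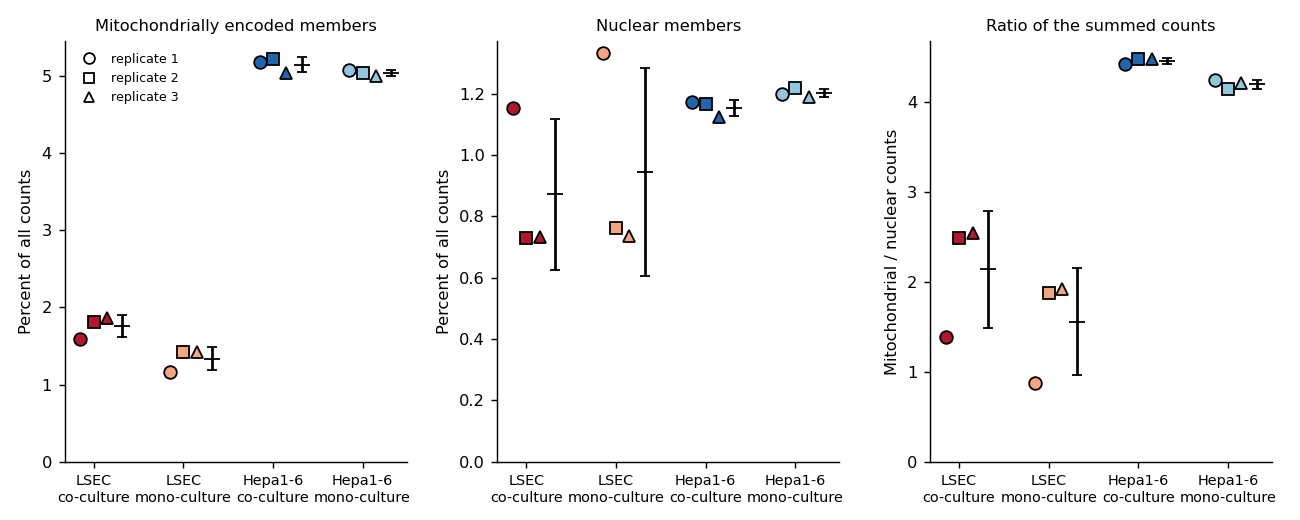
Share of all counts from the 13 mitochondrially encoded genes (left) and the 96 nuclear genes (middle), in percent, and the ratio of the 2 sums (right), by group. Each point is a library, with its replicate number as its shape, and black bars give the mean and SD of 3 libraries. The ratio lies between 0.870 and 2.54 in LSECs and between 4.15 and 4.48 in Hepa1-6 cells, with LSEC replicate 1 lowest in both of its groups.

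Per length, mitochondrial transcripts were far more abundant than nuclear ones in every group. The median over the 13 mitochondrial genes was 2353 TPM (the deposited level per transcript length) in co-cultured LSECs and 1862 TPM in LSECs alone, against 8621 TPM in co-cultured Hepa1-6 cells and 8628 TPM in Hepa1-6 cells alone. The median over the 96 nuclear genes was 175, 202, 166 and 171 TPM in the same order. COX1, the catalytic subunit of complex IV, was the highest of the 13 in all 4 groups (10247 ± 2168 TPM in co-cultured LSECs, 7547 ± 2215 in LSECs alone, 18795 ± 154 in co-cultured Hepa1-6 cells and 17879 ± 107 in Hepa1-6 cells alone; SD, n = 3). ND6, a membrane subunit of complex I, was the lowest, at 181 to 257 TPM as group means. Libraries were made with an mRNA kit, and ND6 is known for having little or no poly(A) tail. Whether this has a part in its low level was not tested.

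Among nuclear members the level per length, averaged over the 4 groups, was highest for Atp5b, the catalytic beta subunit of complex V, at 1127 to 1983 TPM as group means. In the other groups it was highest for Cox4i1 of complex IV, Uqcrh of complex III, Ndufb9 of complex I, Sdhc of complex II and Ndufaf2 among the assembly factors. Cox4i1 had 869 ± 239 TPM in co-cultured LSECs and 868 ± 296 in LSECs alone, against 777 ± 5.96 in co-cultured Hepa1-6 cells and 797 ± 9.78 in Hepa1-6 cells alone (SD, n = 3).

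In co-cultured LSECs against LSECs alone, mitochondrial transcripts were higher, with calls that depended on the replicate block, while the nuclear members had calls in numbers near or below the share over all genes in the fits given here. The clearest values were those of ND2 and ND1, core membrane subunits of complex I. ND2 had 1101, 1455 and 1518 CPM in co-cultured LSECs, against 648, 987 and 1051 CPM in LSECs alone. The groups did not overlap, and replicate 1 was lowest in each. ND1 had 2228, 2355 and 2398 CPM in co-cultured LSECs, against 1478, 1672 and 1666 CPM in LSECs alone, again without overlap. COX1 had 6793, 7992 and 8129 CPM in co-cultured LSECs, against 4538, 5994 and 5839 CPM in LSECs alone. The groups did not overlap for 7 mitochondrial genes, all higher, nor for 13.2% of all genes in that direction, and 2 nuclear members lay wholly lower, as did 8.43% of all genes. All 13 mitochondrial genes were higher in each of the 3 same-numbered pairs, as were 34.2% of all genes tested.

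None of these 13 differences passed edgeR's test without a block, in which 3.09% of all 15256 genes were called, 2.18% higher and 0.911% lower. Nor did any of the 89 nuclear members tested, of which 3 were lower and none higher at an unadjusted p under 0.05, and DESeq2 called none. Of the 13 mitochondrial genes 4 were higher at an unadjusted p under 0.05, and DESeq2 called 1 after adjustment. The shares over all genes at unadjusted p and in DESeq2 are not given here, so these counts cannot be set against them. The same-numbered LSEC libraries deviated together from their group means (correlations 0.748, 0.419 and 0.458, with replicate 1 farthest out). Replicates 2 and 3 correlated as well across numbers (0.47 and 0.396). These values set replicate 1 apart but do not show that the numbers mark matched pairs. With this limit the replicate number was used as a block. In that fit 11 of 13 mitochondrial genes rose and none fell, and 33.3% of all genes were called, with 16.7% higher. Of the nuclear members, 18 of 89 tested fell and none rose, and 16.6% of all genes were lower, a share close to that of the members. From replicates 2 and 3 alone, 13 of 13 mitochondrial genes rose, whereas 7 nuclear members rose and 11 fell, where 36.4% of all genes were called, with 19.4% higher and 17.0% lower. With the block and length correction together, 13 mitochondrial genes rose and 9 nuclear members rose and 10 fell, where 34.7% of all genes were called, with 18.5% higher and 16.2% lower. Length correction without the block called 1 nuclear member, lower, where 11.6% of all genes were called, with 7.03% higher and 4.62% lower. The median over the mitochondrial genes was 0.40 on the log2 scale with the block and 0.41 from replicates 2 and 3. The median over the nuclear members was -0.11 with the block and -0.01 from replicates 2 and 3, and over all genes it was -0.02 with the block.

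Within complex I, ND2 rose by 0.58 ± 0.053 on the log2 scale (SE; edgeR with the block, adjusted p = 5.3e-05), ND1 by 0.49 ± 0.042 (3.6e-05), ND4L by 0.49 ± 0.053 (1.5e-04), ND5 by 0.41 ± 0.049 (2.7e-04), ND4 by 0.40 ± 0.042 (1.4e-04) and ND6 by 0.31 ± 0.073 (0.012). ND3, the shortest of the 7 after ND4L, did not pass (0.14 ± 0.054, adjusted p = 0.075, edgeR with the block). CYTB, the mitochondrial subunit of complex III, rose by 0.23 ± 0.045 (edgeR with the block, adjusted p = 0.0044). In complex IV, COX1 rose by 0.45 ± 0.045 (9.3e-05) and COX3 by 0.33 ± 0.042 (3.7e-04), and COX2, which binds cytochrome c, did not pass (0.15 ± 0.051, adjusted p = 0.050, edgeR with the block). In complex V, ATP8 rose by 0.51 ± 0.088 (adjusted p = 0.0024) and ATP6, the proton channel subunit, by 0.27 ± 0.045 (0.0017) in the same edgeR fit.

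**Figure D2:**
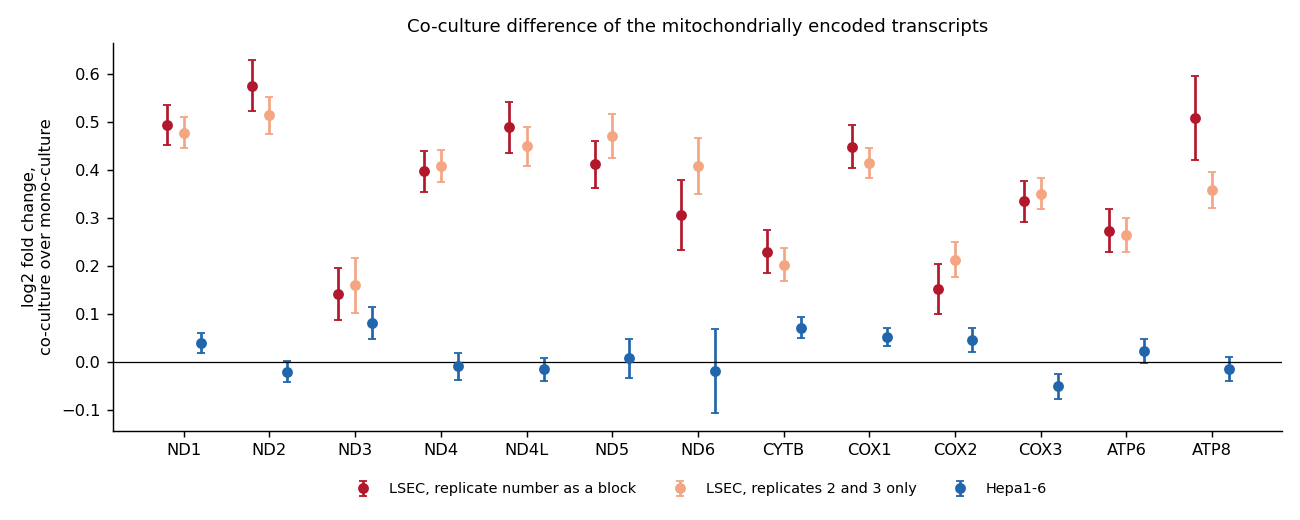
log2 fold change of co-culture over mono-culture (vertical axis) for the 13 mitochondrially encoded genes, in LSECs with replicate number as a block, in LSECs from replicates 2 and 3 only, and in Hepa1-6 cells. Points are estimates and bars are standard errors from edgeR. LSEC values lie between 0.14 and 0.58, and Hepa1-6 values between -0.05 and 0.08.

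The nuclear falls in LSECs included 7 of 38 complex I subunits, 3 of 8 assembly factors, 1 of 4 in complex II, 2 of 8 in complex III, 2 of 13 tested in complex IV, 2 of 17 in complex V, and Cycs. Ndufaf6, an assembly factor of complex I (chr4:11048991-11076237), had 5.17, 3.80 and 3.92 CPM in co-cultured LSECs, against 8.22, 5.97 and 5.14 CPM in LSECs alone. It was lower in every pair, and its ranges touched only through replicate 1 of the co-culture, at -0.62 ± 0.14 (edgeR with the block, adjusted p = 0.0087). Ndufaf4, another assembly factor, had 32.8, 30.5 and 34.8 CPM in co-cultured LSECs, against 46.1, 40.6 and 38.8 CPM in LSECs alone, without overlap (-0.40 ± 0.079, adjusted p = 0.0048, edgeR with the block). Ndufa5, an accessory subunit of complex I, had 58.7, 29.9 and 29.7 CPM in co-cultured LSECs, against 84.1, 34.3 and 35.2 CPM in LSECs alone. Replicate 1 was far above the others in both groups, and the fall within pairs was -0.37 ± 0.079 (edgeR with the block, adjusted p = 0.0066).

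Of the 18 falls, 9 were also called from replicates 2 and 3 alone, namely Ndufa10, Ndufa12, Ndufa5, Ndufaf4, Ndufaf6, Sdhd, Uqcr10, Uqcrq and Cox6a2. Uqcr10 and Uqcrq are small subunits of complex III, and they fell by 0.32 ± 0.069 (adjusted p = 0.0071) and 0.31 ± 0.069 (0.0079) on the log2 scale in the blocked edgeR fit. Cycs, the electron carrier between complexes III and IV, had -0.14 ± 0.048 in the blocked fit (edgeR, adjusted p = 0.048), and was not called from replicates 2 and 3 (-0.11, adjusted p = 0.072). Sdha, the flavoprotein of complex II, was level, with 218, 238 and 240 CPM in co-cultured LSECs and 225, 230 and 236 CPM in LSECs alone.

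Markers of endothelial cells and macrophages also differed between the LSEC cultures. All 15 macrophage and Kupffer cell markers reached 1 CPM in LSECs, and their summed level was 3510 to 4730 CPM in co-cultured LSECs and 2176 to 3405 CPM in LSECs alone. The single markers went both ways, with 7 higher and 5 lower with the block, 3 higher and 2 lower without it, and a median log2 difference of -0.03 in both fits. The summed level of the 12 sinusoidal markers was 9094 to 10255 CPM in co-cultured LSECs and 7052 to 7717 CPM in LSECs alone. Of the 11 tested, 11 rose with the block and 1 without it, with a median of 0.30 on the log2 scale in both fits. The 12 pan-endothelial markers went both ways, with 6 higher and 4 lower with the block and none called without it. Their median was 0.11 in both fits. Over all genes 16.7% were higher and 16.6% lower with the block, and 2.18% and 0.911% without it. The part of either cell type in the mitochondrial rise was not tested. In bulk RNA, fewer cells of a type and less RNA per cell cannot be told apart.

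In co-cultured Hepa1-6 cells against Hepa1-6 cells alone, the differences were small, and how many members of each genome were called depended on the fit. Without length correction more nuclear members were called lower than over all genes, and with it 8 of 13 mitochondrial genes were called higher. In edgeR's test 15 of 89 nuclear members fell and 1 rose, where 15.5% of all 14796 genes were called, with 8.50% higher and 7.03% lower. The median over the nuclear members was -0.07 on the log2 scale, against 0.00 over all genes, and 28 members had co-culture values wholly below the mono-culture values, as 14.9% of all genes did, and 2 wholly above, as 15.7% of all genes did. The falls were small. They took in 5 of 38 complex I subunits, 1 of 8 assembly factors, 1 of 8 in complex III, 2 of 13 tested in complex IV and 6 of 17 in complex V. With the block 18 nuclear members fell and 1 rose, where 17.1% of all genes were called, with 9.06% higher and 8.08% lower. That block rests on the numbers alone, since same-numbered Hepa1-6 libraries did not deviate together (correlations 0.012, -0.034 and -0.051). From replicates 2 and 3 it was 9 lower and none higher, where 8.11% of all genes were called, with 4.84% higher and 3.26% lower. With length correction 8 fell and 3 rose, where 16.5% of all genes were called, with 8.75% higher and 7.71% lower, and with the block added 8 fell and 4 rose, where 17.0% were called, with 8.96% higher and 8.08% lower.

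Ndufaf6 had 11.4, 12.3 and 10.5 CPM in co-cultured Hepa1-6 cells, against 14.6, 15.7 and 14.7 CPM in Hepa1-6 cells alone. The groups did not overlap, and the fall of 0.40 ± 0.081 on the log2 scale was the largest among the members called (edgeR, adjusted p = 0.0016). Atp5g2, one of the genes for subunit c of the ATP synthase rotor, had 135, 139 and 130 CPM in co-cultured Hepa1-6 cells, against 149, 149 and 149 CPM in Hepa1-6 cells alone. Atp5g1, another gene for subunit c, had 101, 104 and 97.7 CPM in co-cultured Hepa1-6 cells, against 113, 111 and 113 CPM in Hepa1-6 cells alone. The 2 genes fell by 0.15 ± 0.031 (adjusted p = 0.0021) and 0.16 ± 0.034 (0.0025) in edgeR, whereas Atp5g3 did not pass (0.02 ± 0.029, adjusted p = 0.79).

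The other falls named here, all on the log2 scale from edgeR, were those of Ndufa5 (-0.19, adjusted p = 0.0098), Ndufa12 (-0.17, 0.0056) and Ndufa13 (-0.14, 0.024) in complex I, Uqcr11 in complex III (-0.16, 0.016), Cox8a (-0.11, 0.018) and Cox5b (-0.15, 0.022) in complex IV, and Atp5d in complex V (-0.13, 0.014). Those of Ndufaf6, Ndufa12, Atp5d, Atp5g1 and Atp5g2 were also called both from replicates 2 and 3 and with length correction. Sdhb, the iron-sulfur subunit of complex II, rose, with 78.3, 78.9 and 70.0 CPM in co-cultured Hepa1-6 cells, against 64.5, 67.9 and 69.7 CPM in Hepa1-6 cells alone (0.17 ± 0.046, edgeR, adjusted p = 0.015). The 2 groups came within 0.3 CPM of each other, and the call was lost from replicates 2 and 3 alone.

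The mitochondrial genes of Hepa1-6 cells hardly differed between the cultures. COX1 had 14026, 14089 and 13894 CPM in co-cultured Hepa1-6 cells, against 13544, 13598 and 13393 CPM in Hepa1-6 cells alone, a difference of 0.05 ± 0.019 that did not pass (edgeR, adjusted p = 0.072). CYTB had 5489, 5474 and 5313 CPM in co-cultured Hepa1-6 cells, against 5213, 5202 and 5085 CPM in Hepa1-6 cells alone, and was the 1 mitochondrial gene called (0.07 ± 0.022, edgeR, adjusted p = 0.029). ND1 had 0.04 ± 0.021 and ND2 had -0.02 ± 0.022 in the same test. The call for CYTB was lost from replicates 2 and 3 alone, while 6 mitochondrial genes were called higher, beside 7 nuclear members lower and 1 higher, without co-culture replicate 3. Shares over all genes without that library are not given here.

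**Figure D3:**
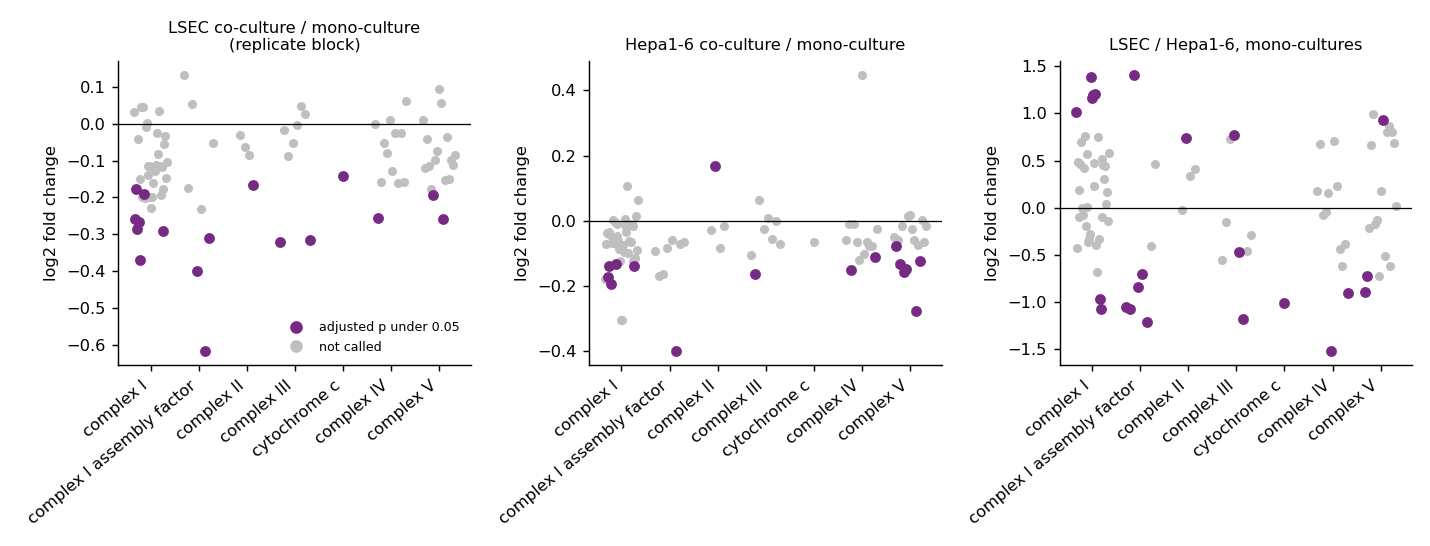
log2 fold change of each nuclear member tested, by complex, for co-cultured LSECs over LSECs alone with replicate number as a block (left), co-cultured Hepa1-6 cells over Hepa1-6 cells alone (middle) and LSECs over Hepa1-6 cells in mono-culture (right). Purple points have an adjusted p under 0.05 in edgeR, grey points do not, the 3 vertical axes differ, and Cox6a2 is left out. In both co-culture panels the called members lie below 0, apart from Sdhb in Hepa1-6 cells, and in the right panel they lie on both sides.

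The co-culture difference of the mitochondrial genes was larger in LSECs than in Hepa1-6 cells when the replicate number was a block. Without the block no member was called by edgeR in this test, in which 2.35% of 17346 genes were called, 1.40% higher and 0.951% lower. At an unadjusted p under 0.05, 6 mitochondrial genes and no nuclear member were higher, and DESeq2 called 2 mitochondrial genes and no nuclear member after adjustment. Here too the shares over all genes for these counts are not given. With the block 10 of 13 mitochondrial genes had a larger difference in LSECs, where 17.3% of all genes were called, with 9.36% higher and 7.98% lower, and 0 of 90 nuclear members were called. The block also matched Hepa1-6 libraries by number, although these did not deviate together (same-number correlations 0.012, -0.034 and -0.051). From replicates 2 and 3 alone, 10 mitochondrial genes and 3 nuclear members were called, all with the larger difference in LSECs, where 15.5% of all genes were called, with 7.18% higher and 8.30% lower. With the block and length correction it was 11 mitochondrial genes and 15 nuclear members, all higher, where 20.1% of all genes were called, with 12.2% higher and 7.86% lower. Length correction without the block called no member, where 8.01% of all genes were called, with 4.84% higher and 3.17% lower. ND2 had the largest blocked value, with a difference between the cells of 0.63 ± 0.064 on the log2 scale (edgeR, adjusted p = 1.4e-04). ND3, ND6 and COX2 were not called with the block. The sinusoidal, pan-endothelial and macrophage markers given above for the LSEC cultures apply here too, and their part in this difference was not tested.

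LSECs alone were set against Hepa1-6 cells alone to see how the 2 genomes differ between the cell types. All 13 mitochondrial genes were lower in LSECs, in edgeR's test with all libraries and from replicates 2 and 3, where 70.0% of all 16411 genes were called in the test with all libraries, with 32.8% lower. The size ranged widely over the 13 genes. ATP8 had 56.7, 160 and 160 CPM in LSECs alone, against 1193, 1231 and 1231 CPM in Hepa1-6 cells alone. Replicate 1 was by far the lowest LSEC library, and the difference was -3.27 ± 0.42 on the log2 scale (edgeR, adjusted p = 5.7e-04) or -2.95 ± 0.035 from replicates 2 and 3.

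ATP6 had 692, 727 and 694 CPM in LSECs alone, against 4777, 4788 and 4842 CPM in Hepa1-6 cells alone (-2.76 ± 0.11, edgeR, adjusted p = 5.3e-06). ND3 had 75.8, 47.0 and 45.0 CPM in LSECs alone, against 352, 354 and 348 CPM in Hepa1-6 cells alone (-2.64 ± 0.23, edgeR, adjusted p = 9.6e-05). At the other end, ND5 had 601, 1014 and 1098 CPM in LSECs alone, against 1388, 1413 and 1518 CPM in Hepa1-6 cells alone (-0.66 ± 0.24, edgeR, adjusted p = 0.043). ND6 had 50.02, 42.6 and 42.8 CPM in LSECs alone, against 66.4, 70.7 and 58.4 CPM in Hepa1-6 cells alone (-0.52 ± 0.13, edgeR, adjusted p = 0.0094). The groups did not overlap for any of the 13 genes, all lower in LSECs, as was true of 37.7% of all genes.

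The remaining mitochondrial genes lay between these. ND1, ND2 and CYTB had -2.32, -2.28 and -2.24 on the log2 scale, ND4L had -2.06 ± 0.52, and ND4, COX2, COX3 and COX1 had -1.76, -1.66, -1.58 and -1.30. As a share of all mitochondrial counts, COX1 made up 39.7% ± 2.08 in LSECs alone and 28.0% ± 0.0923 in Hepa1-6 cells alone, and ATP6 5.16% ± 0.459 in LSECs alone and 9.95% ± 0.116 in Hepa1-6 cells alone (SD, n = 3). The LSEC and Hepa1-6 libraries did not overlap for either share. With length correction ND4L, ND5 and ND6 were no longer called.

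Replicate 1 of the LSECs differed from the other 2 within this set as well. ND4L had 49.9 CPM in replicate 1 of the co-culture, where replicates 2 and 3 had 178 and 190, and 31.9 CPM in replicate 1 of the mono-culture, where replicates 2 and 3 had 131 and 132. COX2 went the other way, with 1303 CPM in replicate 1 of the co-culture, where replicates 2 and 3 had 965 and 985, and 1220 CPM in replicate 1 of the mono-culture, where replicates 2 and 3 had 846 and 800. ND3 and COX3 were also higher in replicate 1, and ND2, ND4, ND5, COX1 and ATP8 lower. ATP8 and ND4L are the shortest of the 13 genes, at 204 and 297 bases, and ND3, at 348 bases, is the next.

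**Figure D4:**
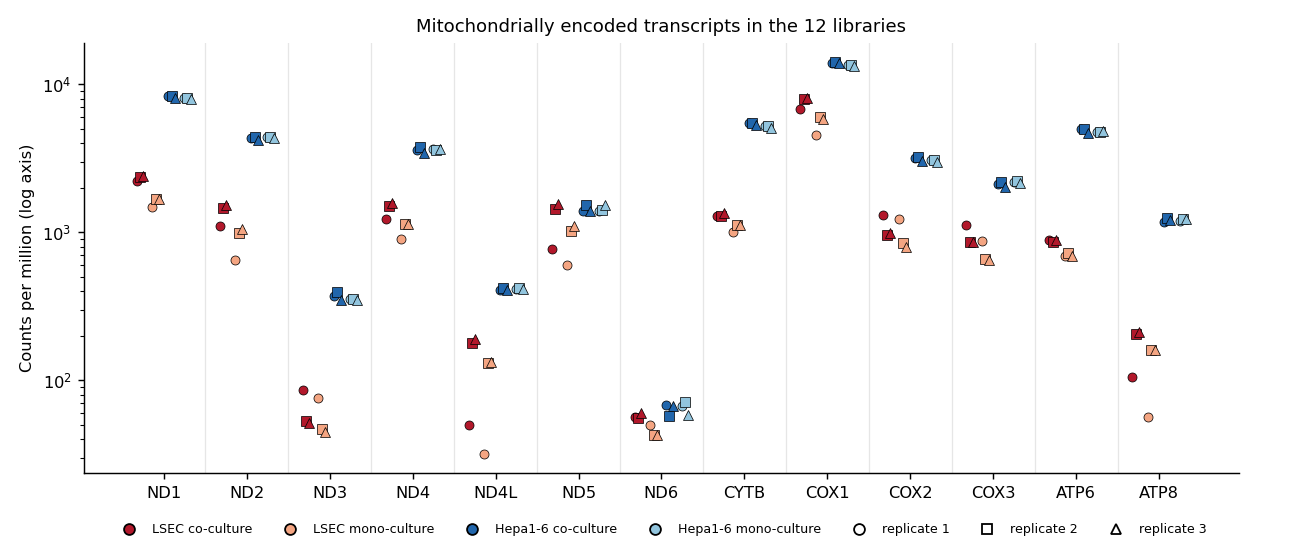
CPM of the 13 mitochondrially encoded genes in the 12 libraries on a log axis, by group (colour) and replicate number (shape). Every gene is lower in LSECs alone than in Hepa1-6 cells alone, by most for ATP8 and least for ND6, and LSEC replicate 1 lies well below replicates 2 and 3 for ND4L and ATP8.

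The nuclear members had no common direction between the cells that held across settings. With all libraries 10 of 89 were higher in LSECs alone and 14 lower, where 37.2% of all genes were higher and 32.8% lower. The groups lay wholly apart for 25 higher and 15 lower members, as for 40.1% and 37.7% of all genes. From replicates 2 and 3 it was 20 higher and 56 lower (85.3% of all genes called, 43.9% higher and 41.4% lower). Without LSEC mono-culture replicate 1 it was 20 higher and 57 lower, for which the share over all genes is not given here. Length correction gave 40 higher and 27 lower (79.7% called, 43.9% higher and 35.8% lower). The block gave 8 higher and 15 lower (64.8% called, 34.2% higher and 30.5% lower), and with length correction 39 and 26 (75.9% called, 41.8% higher and 34.1% lower). Here the block matched LSEC with Hepa1-6 libraries by number alone, since their deviations did not go together (correlations 0.005, -0.019 and 0.032). The median over the nuclear members was 0.01 on the log2 scale with all libraries and -0.44 from replicates 2 and 3. All 24 members called with all libraries were called in the same direction from replicates 2 and 3 and with length correction, so statements are limited to these.

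Of the 14 lower in LSECs alone, Cox6c, a small subunit of complex IV, had 155, 69.7 and 69.4 CPM in LSECs alone, against 279, 297 and 272 CPM in Hepa1-6 cells alone (-1.52 ± 0.335, edgeR, adjusted p = 0.0064). Uqcrfs1, the Rieske iron-sulfur protein of complex III, had 93.7, 61.0 and 58.0 CPM in LSECs alone, against 157, 166 and 160 CPM in Hepa1-6 cells alone (-1.17 ± 0.20, edgeR, adjusted p = 0.0020). In both the groups were well apart even with the high values of LSEC replicate 1.

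Cycs had -1.01 ± 0.195 on the log2 scale (edgeR, adjusted p = 0.0036), Ndufs1 of complex I had -0.97 ± 0.14 (9.7e-04), Atp5a1, the alpha subunit of complex V, had -0.89 ± 0.11 (4.7e-04), and Atp5b had -0.72 ± 0.14 (0.0037). Of 8 assembly factors 5 were lower, namely Ndufaf1, Ndufaf2, Ndufaf4, Ndufaf5 and Ndufaf6, with values of -0.70 to -1.21, and Ndufaf3 was higher (1.41 ± 0.37, edgeR, adjusted p = 0.013). Uqcrc2, a core subunit of complex III, and Ndufa4 were also lower.

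Of the 10 higher in LSECs alone, Ndufb4, an accessory subunit of complex I, had 79.9, 41.5 and 40.8 CPM in LSECs alone, against 21.9, 20.2 and 20.5 CPM in Hepa1-6 cells alone (1.38 ± 0.28, edgeR, adjusted p = 0.0047). Its near copies Ndufb4b and Ndufb4c had 1.17 and 1.20, but at 1.18 to 5.02 CPM in the mono-culture libraries, and how reads shared between the 3 genes were counted is not stated. Sdhb (0.74 ± 0.24, adjusted p = 0.032) and Uqcrc1, a core subunit of complex III (0.77 ± 0.23, adjusted p = 0.025), were also higher in the same edgeR test. Ndufa1 and Ndufb7 of complex I and Atp5j of complex V were the other higher members beside Ndufaf3 and Cox6a2.

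**Figure D5:**
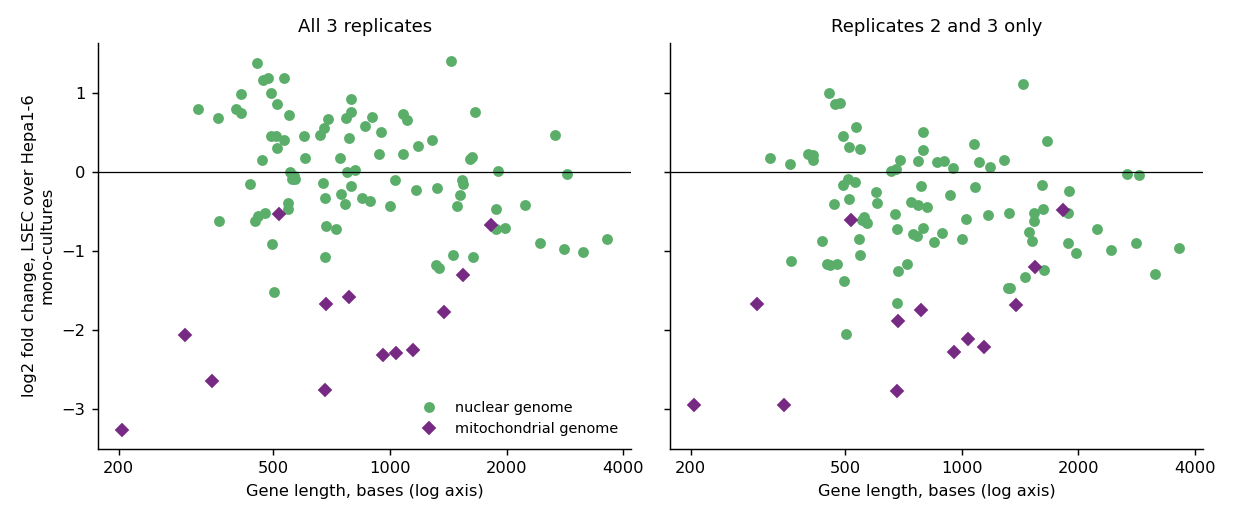
log2 fold change of LSECs over Hepa1-6 cells in mono-culture (vertical axis) against gene length in bases (log axis) for the nuclear members (circles) and the mitochondrially encoded ones (diamonds), from all 3 replicates (left) and from replicates 2 and 3 (right). Cox6a2 is left out. The diamonds stay below 0 in both panels, whereas the circles lie lower on the right, with a median of -0.44, than on the left, with a median of 0.01.

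Several subunits of complex IV exist in forms used by different tissues, and the forms common to most tissues were the ones present. Cox4i1, Cox6a1, Cox6b1, Cox7a2, Cox7a2l, Cox8a and Ndufa4 were found in every library, the lowest value being 60.0 CPM, of Cox7a2. Cox4i2, Cox6b2, Cox7a1, Cox7b2, Cox8b, Cox8c and Ndufa4l2 were under 1 CPM as a mean in all 4 groups, with Cox7b2, Cox8b and Cox8c at 0 in all 12 libraries, where 3 counts correspond to 0.0614 to 0.0916 CPM. The limit covers counting error only. These 7 were not tested between the LSEC groups.

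Cox6a2, the form of heart and skeletal muscle (chr7:128205435-128206366), was found in LSECs alone. It had 61, 43 and 36 counts in LSECs alone, against 0 in each library of Hepa1-6 cells alone, a level at least 47.2-fold higher when the Hepa1-6 libraries are together given 3 counts. It had 8, 0 and 15 counts in co-cultured LSECs, and fell there against LSECs alone (-2.68 ± 0.68, edgeR with the block, adjusted p = 0.015). The co-cultured LSECs were lower in every pair, at a level near 1 CPM at most.

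The genes around the pathway were taken from lists of their own. Their counts are to be read beside those over all genes, of which 16.7% were higher and 16.6% lower in co-cultured LSECs with the block, 8.50% and 7.03% in co-cultured Hepa1-6 cells, and 37.2% and 32.8% in LSECs alone against Hepa1-6 cells alone. Without the block no gene of the 6 lists was called between the LSEC cultures. The 78 mitochondrial ribosomal proteins, which translate the 13 mitochondrial messages, had no member called in LSECs without the block, and with it 42 fell and none rose in co-cultured LSECs. From replicates 2 and 3 it was 30 lower and 2 higher, where 17.0% of all genes were lower and 19.4% higher. Mrps18b averaged 56.5 ± 11.5 CPM in co-cultured LSECs and 85.4 ± 26.9 CPM in LSECs alone (SD, n = 3), with -0.62 ± 0.076 in the blocked edgeR fit. In co-cultured Hepa1-6 cells 13 fell and 1 rose, among them Mrpl19 (-0.18 ± 0.035 in edgeR). Between the cells alone, 6 were higher in LSECs and 18 lower with all libraries, both below the shares over all genes. In the fit from replicates 2 and 3 alone, 8 were higher and 60 lower, where 43.9% of all genes were higher and 41.4% lower.

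Of 30 genes for mitochondrial DNA maintenance, transcription and RNA handling, 8 fell and none rose in co-cultured LSECs with the block, and none was called without it. Trmt10c, a subunit of mitochondrial RNase P, which cuts the long transcripts, averaged 24.5 ± 1.13 CPM in co-cultured LSECs and 33.3 ± 1.92 CPM in LSECs alone (SD, n = 3; -0.48 ± 0.066 in the blocked edgeR fit). In co-cultured Hepa1-6 cells 4 fell, among them Lrpprc, which stabilises mitochondrial messages (-0.20 ± 0.031), and the DNA helicase Twnk (-0.19 ± 0.048), and Fastkd1, of a family that handles mitochondrial RNA, rose (0.29 ± 0.046). Between the cells alone, 5 were higher in LSECs and 15 lower, with Fastkd1 at -1.67 ± 0.11 and Twnk at -1.51 ± 0.11.

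Of 12 regulators of mitochondrial biogenesis, 4 rose and 3 fell in co-cultured LSECs with the block, out of 9 tested. Nrip1, a corepressor of oxidative genes, averaged 75.3 ± 29.5 CPM in co-cultured LSECs and 43.9 ± 18.3 CPM in LSECs alone (0.75 ± 0.058 in the blocked edgeR fit), and the transcription factor Nrf1 averaged 44.8 ± 3.06 CPM in co-cultured LSECs and 55.3 ± 1.74 CPM in LSECs alone (-0.35 ± 0.062). In Hepa1-6 cells only Pprc1, a coactivator, was called among 11 tested (-0.10 ± 0.032). The coactivator Ppargc1a averaged 0.0383 ± 0.0663 CPM in LSECs alone and 4.92 ± 0.491 CPM in Hepa1-6 cells alone, and the receptor Esrrg 0.0948 ± 0.0866 CPM in LSECs alone and 8.0 ± 0.0758 CPM in Hepa1-6 cells alone.

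Of 39 tested assembly factors without Nduf names, 1 rose and 9 fell in co-cultured LSECs with the block, with Cox10, which makes the heme of complex IV, at -0.64 ± 0.077, and 1 rose and 4 fell in co-cultured Hepa1-6 cells. Of 13 enzymes of the citric acid cycle, Ogdh alone was called in co-cultured LSECs with the block (0.24 ± 0.053), and Fh1 rose in co-cultured Hepa1-6 cells, where it averaged 164 ± 11 CPM, against 116 ± 4.16 CPM in Hepa1-6 cells alone (0.51 ± 0.042 in edgeR). Of the 13, 9 were lower in LSECs alone than in Hepa1-6 cells alone and none higher with all libraries, and 10 were lower and 3 higher from replicates 2 and 3. The citrate synthase gene Cs had 255 ± 20.3 CPM in LSECs alone and 575 ± 4.03 CPM in Hepa1-6 cells alone. Of 14 tested carriers of the mitochondrial membranes, 3 rose and 3 fell in co-cultured LSECs with the block, with the dicarboxylate carrier Slc25a10 at 33.8 ± 8.64 CPM in co-cultured LSECs and 14.2 ± 4.25 CPM in LSECs alone (1.22 ± 0.075 in the blocked edgeR fit).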

How the data were processed

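Each library started from 1 µg of RNA and a strand-marking mRNA kit, with inserts of 200 to 400 bp, per the labels' protocols. Per the submitters' processing notes, HISAT2, StringTie and mm10 were used; versions, annotation and strand setting are not given in the sources used here. The gene table holds estimated counts (expected counts, deposited as whole numbers), TPM and FPKM, per the file headers. The deposited TPM values gave levels per length and 1 alternative fit, and the deposited FPKM values were not used.

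Counts were tested with edgeR 4.0.16 in R 4.3.3 (filterByExpr, TMM, robust quasi-likelihood F-test, Benjamini-Hochberg over all genes tested, threshold 0.05). Each 2-group comparison used its own 6 libraries, and the comparison of co-culture effects all 12. CPM values share 1 TMM scale. Alternatives were other size factors, DESeq2 1.42.0, no filter, limma 3.58.1 on log2(TPM + 1), a replicate block, length correction, scaling by nuclear genes, replicates 2 and 3 only, and leaving out each library. The pairing rule asked for same-number correlations over 0.1. LSECs met it, although replicates 2 and 3 correlated as well across numbers (0.47 and 0.396). Hepa1-6 libraries did not (0.012, -0.034 and -0.051), nor did LSEC with Hepa1-6 libraries in mono-culture (0.005, -0.019 and 0.032). The block was still fitted there as an alternative. The edgeR fit without block or length correction was tested on simulated data. These held no shift of replicate 1 and no matched numbers, so that test does not cover the other fits. Reads shared by overlapping mitochondrial genes, by ND5 and ND6 on opposite strands, by gene copies and by pseudogenes cannot be assigned, since their handling is not stated.

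All 109 members have a RefSeq entry of the same number, and 105 start at the same base. Genes named were all mitochondrial members, complex II, Cycs, tissue-specific forms, up to 3 called members a group and list with non-overlapping groups, and the most abundant of each complex. Names from blocked fits, such as Ndufa5 and Uqcr10 in LSECs, needed only the same direction in all same-numbered pairs, and their groups can overlap. They and any other names were chosen after their values were seen. Members and lists were chosen with earlier results of these data known. One result is not reported here.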

Additional observations from a re-analysis of the deposited data

Results flagged for a closer look

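The co-culture difference was larger in LSECs than in Hepa1-6 cells for 10 mitochondrially encoded genes, by edgeR's test of the difference itself with replicate number as a block. On the log2 scale, LSECs minus Hepa1-6 cells, it was 0.63 for ND2, 0.55 for ATP8, 0.53 for ND4L, 0.49 for ND1, 0.44 for ND4, 0.44 for ND5, 0.43 for COX1, 0.42 for COX3, 0.29 for ATP6 and 0.19 for CYTB. All but CYTB were also called from replicates 2 and 3 alone (CYTB 0.12, adjusted p = 0.062). With the block 17.3% of all genes were called, 9.36% higher and 7.98% lower. From replicates 2 and 3 it was 15.5%, with 7.18% higher and 8.30% lower. Without the block edgeR called no member. The block also matched Hepa1-6 libraries by number, although these did not meet the pairing rule. In the same LSEC libraries 11 of 11 sinusoidal markers tested rose with the block, and of 15 macrophage markers 7 rose and 5 fell. Of 12 pan-endothelial markers 6 rose and 4 fell. Over all genes 16.7% were higher and 16.6% lower in that LSEC fit. The part of these markers was not tested.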

How the results depend on the processing

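Shares over all genes are not given here for DESeq2, limma or the fits with 1 library left out. The counts from those fits show only how far the calls moved. Members called without a block numbered, for co-cultured LSECs, 0 mitochondrial higher, 0 nuclear higher and 0 nuclear lower. These became 11, 0 and 18 with the replicate block, 13, 9 and 10 with the block and length correction, 13, 7 and 11 from replicates 2 and 3, 0, 0 and 1 with length correction, and 1, 0 and 0 with DESeq2. For co-cultured Hepa1-6 cells, 1 mitochondrial higher, 1 nuclear higher and 15 nuclear lower became 3, 1 and 18 with the block, 8, 3 and 8 with length correction, 8, 4 and 8 with both, 0, 0 and 9 from replicates 2 and 3, 3, 1 and 5 with limma on TPM, and 2, 1 and 18 with DESeq2. Leaving out 1 library gave 0 to 6, 0 to 1 and 5 to 12. The call of 6 mitochondrial genes came without co-culture replicate 3, and the 5 nuclear falls without mono-culture replicate 2. For LSECs against Hepa1-6 cells, 10 nuclear higher and 14 lower became 40 and 27 with length correction, 39 and 26 with it and the block, 20 and 56 from replicates 2 and 3, 16 and 15 with DESeq2 and 18 and 20 with limma on TPM. Leaving out 1 library gave 4 to 20 higher and 11 to 57 lower, the highest without LSEC replicate 1 and the lowest count higher, 4, without Hepa1-6 replicate 3. For the difference of the co-culture effects, 0 mitochondrial higher became 10 with the block, 11 with it and length correction, 10 from replicates 2 and 3, 2 with DESeq2, 1 with limma on TPM and 0 to 1 with 1 library left out, and nuclear calls became 15 higher with block and length correction, 3 higher from replicates 2 and 3 and 1 lower with limma on TPM.

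The direction turned for ND4L (0.087) and ATP8 (0.10) in Hepa1-6 cells with length correction, with or without the block, and for Cox4i1 in LSECs (0.14 with both). Between the cells alone it turned for Cox4i1 (-0.37 in both), Cox6b1 (-0.40 and -0.41) and Cox7a2l (-0.18 and -0.16) from replicates 2 and 3 and without LSEC replicate 1. With 1 library left out these 3 ranged up to 0.39, 0.37 and 0.39. The cause was not tested. Of the values of single genes, 2113 kept their side of the threshold, 174 newly passed it, 80 no longer did and 11 turned direction. These totals pool all comparisons and fits. Between the LSEC cultures, 24 of 37 genes newly passed with the block and 23 from replicates 2 and 3. With any 1 library left out all 37 kept their side, but none of them was called in either fit. A turn was counted only where the main or the other fit made a call, so values called in neither may have changed direction. Length correction and the block draw on the same replicate 1, and 3 libraries a group limit what small differences can be seen.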
